A study of Sus scrofa with 18 samples.

Results

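The genes described are 55 genes of DNA replication and cell division, 19 that act in S phase and 36 that act in mitosis, measured by RNA sequencing in whole brains of fetal pigs. Members were found by an equal gene name in the deposited gene table, which named 48 of the 55, 17 of the S phase genes and 31 of the mitosis genes, among 31908 genes of which 16719 had a name. Another 3 members (CDT1, BUB1B and NUSAP1) were found by gene ID and 3 (MKI67, AURKA and RRM2) by the position of the RefSeq gene, and these 6 are given apart from the counts. CCNA2, the cyclin of late S phase, was the 1 member with no row, and no unnamed gene covered its position. All 48 named members passed the filter on low counts.

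Brains were collected at gestation day (GD) 45, GD60 and GD90 from untreated Landrace x Large White gilts that had been inseminated with LR-M6 semen, with 3 female and 3 male fetuses at each day and 1 library per brain. By the litter sizes in the labels, each day held 3 litters with 1 female and 1 male fetus each, so the replicate number within a day stands for the litter. No gene was altered in any group, and every sample is a whole brain in which dividing progenitors, neurons, glia and vessels are mixed. In such bulk samples, fewer cells of a type and less RNA per cell cannot be told apart.

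Totals ran from 15118843 to 19729783 counts per library, and the median count of a named member in a library was 262, with a lowest of 2. Neuron markers were present in every library, with 11 of 12 in the table and a summed level of 3000 to 7790 CPM (counts scaled to the same library total), and of 8 pancreatic genes, a foreign tissue, CPB1, PNLIP and CELA1 had 3 counts or fewer in every library. The summed level of these 8 was 59.4 to 121 CPM, most of it CTRC (means of 81.4, 68.2 and 61.4 CPM at GD45, GD60 and GD90), with CEL at up to 34.8 CPM in a library. The library of male GD45 replicate 3 stood apart: its deviations from its group mean had an SD over genes of 0.61 on the log2 scale, against 0.239 to 0.441 in the other 17. Both GD45 fetuses of replicate 3, from a litter of 8, had the lightest brains of that day, at 0.6653 and 0.7135 against 1.55 to 1.86 in the unit of the labels, so litter and brain size cannot be told apart there. Where its value moved a GD45 level, range or overlap most, the value without it is given too.

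A cell that divides first licenses its replication origins by loading the MCM helicase, then enters S phase when cyclin E and E2F factors are active, copies its DNA with the help of PCNA and a supply of deoxynucleotides, and finally separates its chromosomes in mitosis under CDK1, cyclin B and the Polo and Aurora kinases. S phase genes are mostly driven by E2F factors at sites in their promoters. Many mitosis genes are instead held by the MuvB complex with B-MYB or FOXM1 at a cell cycle homology region (CHR) element, close to CCAAT boxes bound by NF-Y. In the fetal brain these genes are expressed by radial glia and intermediate progenitors that line the ventricles and by precursors of cerebellar granule cells, and they are silenced as neurons leave the cycle.

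Promoters are shown because these elements are the known link between the members' sequence and their phase. Windows of 250 bases before and 50 bases after the first base of the RefSeq gene (Sscrofa11.1) were read for all 55 members. The E2F-like letters TTNGCGC or TTCCCGC, searched on both strands, were in 36.8% of the S phase and 33.3% of the mitosis promoters, against 13.8% of 20638 promoters of protein-coding genes. The CHR letters TTTGAA or TTCGAA were in 52.8% of the mitosis promoters, in 15.8% of the S phase promoters and in 16.1% of all. CCAAT was in 63.2% of the S phase and 72.2% of the mitosis promoters, against 35.7% of all. Both CHR and CCAAT were in 44.4% (16 of 36) of the mitosis promoters, 15.8% (3 of 19) of the S phase promoters and 6.45% of all. A match is a description of letters, not of binding, and a window without one says only that these letters are not in it.

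The first sequence belongs to a mitosis gene with a large fall over gestation, UBE2C (the ubiquitin-conjugating enzyme of the anaphase-promoting complex), with 5 CCAAT boxes upstream of 1 CHR that starts 6 bases before the gene. CDK1 and MCM6, which encodes a helicase subunit, are among the 11 members that hold all 3 kinds of letters. In MCM6 E2F-like matches on opposite strands overlap. MCM3, which encodes another helicase subunit, holds E2F-like and CCAAT letters. CCNE1 and PLK4, the 2 members called higher at GD90 than at GD60, hold none of the 3, like 10 other members. At GD90 those 10 stood at 23.9% (NCAPH) to 64.4% (SMC2) of GD45, and MCM6, with its E2F-like letters, stood at 64.3%. The rise counted as PLK4 lay in exons outside RefSeq PLK4, as described below, whereas the window is that of RefSeq PLK4. Capitals mark the E2F-like, CHR and CCAAT letters on either strand, and each sequence reads 5′ to 3′ on the strand of the gene.
UBE2C chr17:48018153-48018452 (+): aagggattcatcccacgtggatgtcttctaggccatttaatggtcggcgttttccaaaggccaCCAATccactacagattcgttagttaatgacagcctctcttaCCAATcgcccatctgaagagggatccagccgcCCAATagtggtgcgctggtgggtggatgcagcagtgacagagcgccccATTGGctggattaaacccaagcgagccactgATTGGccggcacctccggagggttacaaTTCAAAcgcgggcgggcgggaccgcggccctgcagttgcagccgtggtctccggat
CDK1 chr14:64233695-64233994 (+): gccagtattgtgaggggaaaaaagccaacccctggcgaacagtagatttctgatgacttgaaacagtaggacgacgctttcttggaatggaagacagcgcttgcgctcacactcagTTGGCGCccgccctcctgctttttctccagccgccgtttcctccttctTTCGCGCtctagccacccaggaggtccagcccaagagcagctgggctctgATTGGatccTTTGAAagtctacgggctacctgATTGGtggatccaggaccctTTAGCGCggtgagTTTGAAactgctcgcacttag
MCM3 chr7:46104376-46104675 (-): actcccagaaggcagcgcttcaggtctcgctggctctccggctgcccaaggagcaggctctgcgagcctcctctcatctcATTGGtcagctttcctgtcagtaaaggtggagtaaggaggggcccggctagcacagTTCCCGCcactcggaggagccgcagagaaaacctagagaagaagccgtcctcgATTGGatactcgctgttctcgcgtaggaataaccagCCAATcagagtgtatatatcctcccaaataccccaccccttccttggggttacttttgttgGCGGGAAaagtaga
MCM6 chr15:15923388-15923687 (+): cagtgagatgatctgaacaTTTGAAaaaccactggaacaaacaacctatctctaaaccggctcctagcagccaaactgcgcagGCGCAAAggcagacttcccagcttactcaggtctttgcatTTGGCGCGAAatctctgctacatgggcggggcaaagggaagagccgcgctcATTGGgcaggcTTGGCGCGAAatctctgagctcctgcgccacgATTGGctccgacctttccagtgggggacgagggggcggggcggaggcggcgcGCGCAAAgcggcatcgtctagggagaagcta
CCNE1 chr6:39919291-39919590 (+): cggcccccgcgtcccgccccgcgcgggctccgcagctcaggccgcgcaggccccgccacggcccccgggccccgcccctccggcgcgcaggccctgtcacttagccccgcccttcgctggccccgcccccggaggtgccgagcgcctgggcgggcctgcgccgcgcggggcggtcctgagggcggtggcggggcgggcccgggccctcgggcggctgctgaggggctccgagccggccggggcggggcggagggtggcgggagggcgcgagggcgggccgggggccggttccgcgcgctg
PLK4 chr8:97013275-97013574 (-): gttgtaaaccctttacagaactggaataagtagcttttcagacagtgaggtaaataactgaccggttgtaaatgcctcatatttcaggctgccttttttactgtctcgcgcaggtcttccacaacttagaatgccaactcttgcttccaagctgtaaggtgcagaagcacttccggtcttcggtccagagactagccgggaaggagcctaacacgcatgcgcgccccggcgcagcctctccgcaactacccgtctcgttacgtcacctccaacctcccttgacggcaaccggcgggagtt

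Both phases fell from GD45 to GD60 and again from GD60 to GD90. Levels are given as CPM scaled by TMM factors, which set the bulk of genes equal between libraries. The summed level of the 17 S phase genes ran from 955 to 1310 CPM at GD45, from 572 to 680 at GD60 and from 355 to 421 at GD90. The summed level of the 31 mitosis genes ran from 1040 to 1280 CPM at GD45, from 524 to 594 at GD60 and from 323 to 387 at GD90. In both sums every library of a day lay below every library of the day before it. At GD60 the S phase sum stood at 58.7% and the mitosis sum at 48.8% of the GD45 mean, and at GD90 they stood at 37.5% and 30.0%. Without male GD45 replicate 3 the GD45 means were 989 ± 30.9 CPM (SD, n = 5) for S phase and 1110 ± 76.3 CPM for mitosis, instead of 1040 ± 136 and 1140 ± 98.0 CPM (n = 6).

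**Figure D1:**
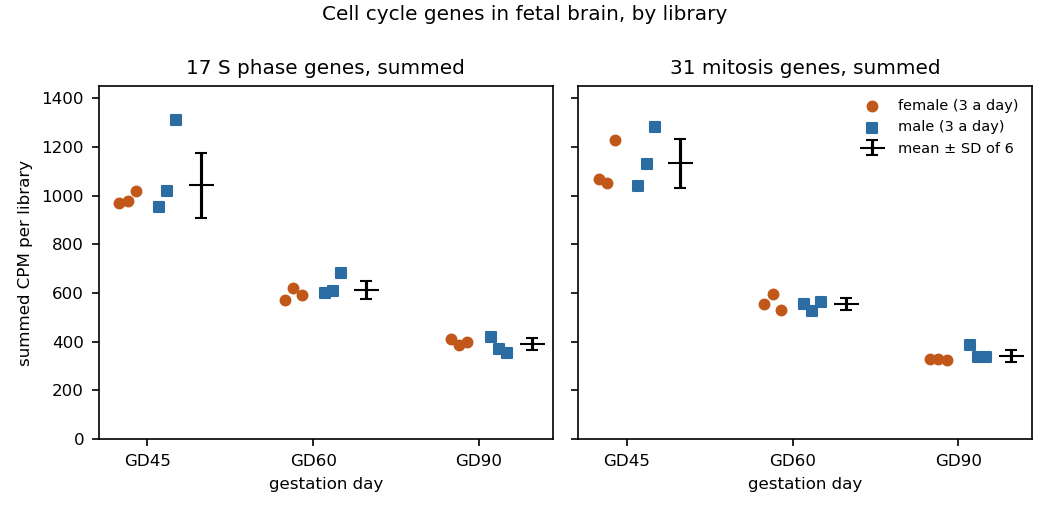
Summed CPM (y axis) of the 17 S phase and the 31 mitosis genes in each library by gestation day (x axis), females as circles, males as squares, with the mean and SD of 6 libraries beside them. The 3 days do not overlap in either panel, and the highest GD45 point of each panel is male replicate 3.

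The ratio of the S phase to the mitosis sum was 0.917 ± 0.0631 (SD, n = 6) at GD45, 1.11 ± 0.0699 at GD60 and 1.15 ± 0.0828 at GD90. At GD45 it ran from 0.834 to 0.928 in 5 libraries and was 1.03 in male replicate 3, and at GD60 it ran from 1.03 to 1.21. The ranges of GD60 and GD90 (1.05 to 1.24) overlapped over most of their width. The sums give most weight to a few genes of high count, such as MCM7, RRM1 and TOP2A. At GD90 the largest named mitosis entry was PLK4, with means of 34.9, 29.1 and 48.2 CPM at the 3 days (TOP2A 34.9 at GD90). Its rise lay in exons outside RefSeq PLK4, as described below. It therefore holds up the mitosis sum and lowers the ratio at GD90, so the overlap of GD60 and GD90 depends in part on it. Sums without PLK4 were not made.

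Gene by gene, 45 of the 48 named members were lower at GD60 than at GD45 over both sexes (edgeR's quasi-likelihood test, Benjamini-Hochberg adjusted p under 0.05), and none was higher. Among all 16325 genes tested, 7.37% were called lower. The median log2 change was −1.0 for the members, and the 3 that did not pass were PLK4, ESPL1 and PRC1. All 17 S phase genes and 28 of the 31 mitosis genes were lower. In females alone 40 members were lower (2.88% of all genes) with a median log2 change of −0.97, and in males alone 39 were lower (2.53% of all genes) with a median of −1.01. With only the 6 male libraries of these days in the fit, no member and 0.0% of all genes were called in males (edgeR, smallest adjusted p of a member 0.0761, 41 members at an unadjusted p under 0.05). In 38 members the fall was called in each sex separately, which can hold for at most the 2.53% of all genes called lower in males.

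From GD60 to GD90 41 of the 48 named members were lower and 2 were higher, with a median log2 change of −0.82 over both sexes. This was a period of wide change, in which 20.9% of all genes were called lower and 21.4% higher. Lower members were 15 of 17 in S phase and 26 of 31 in mitosis, and the 2 higher ones were CCNE1 and PLK4. In females 33 members were lower and 1 higher (13.4% and 13.7% of all genes), and in males 35 were lower and 2 higher (16.0% and 18.5% of all genes), with median log2 changes of −0.82 and −0.88. In 29 members the fall was called in each sex separately, which can hold for at most the 13.4% of all genes called lower in females.

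Most members fell without any overlap between days. All 6 GD60 libraries lay below all 6 GD45 libraries in 41 of the 48 members (3.84% of all genes tested), or in 44 without male GD45 replicate 3, and all 6 GD90 libraries lay below all 6 GD60 libraries in 31 (11.2% of all genes). Both held in 29 members, 10 of S phase and 19 of mitosis, against 1.7% of all genes. In 40 members the adjusted p was under 0.05 in both periods, against 3.87% of all genes.

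**Figure D2:**
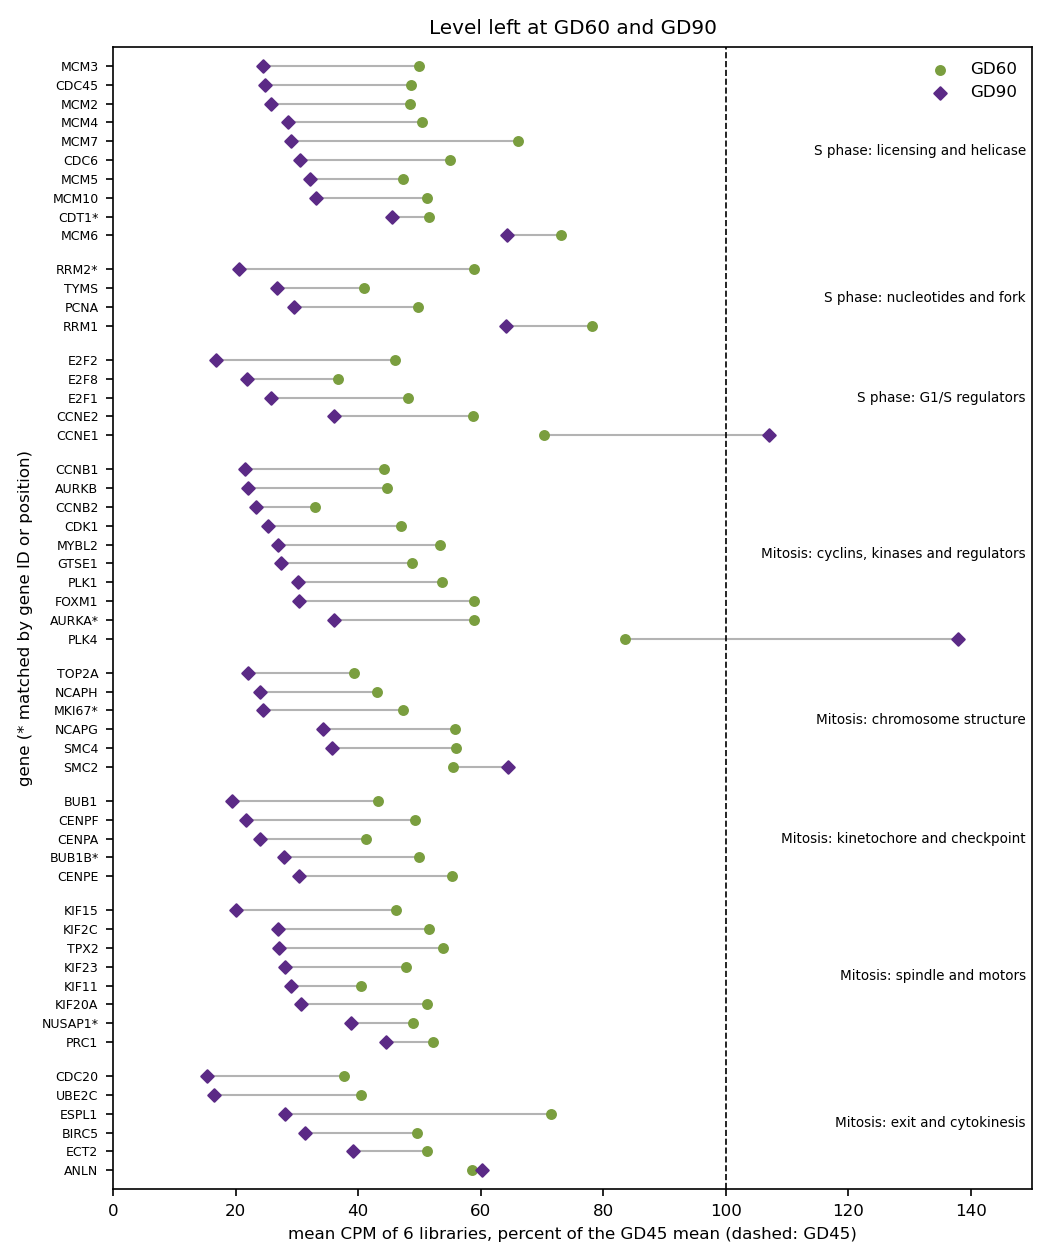
Mean CPM at GD60 (circles) and GD90 (diamonds) as percent of the GD45 mean (x axis) for the 54 members with a row, grouped by role (y axis), from 6 libraries a day. CDC20 has 15.3% left at GD90, or 18.3% without male GD45 replicate 3, where E2F2 (17.2%) and UBE2C (17.9%) have less, and of the members drawn only CCNE1 (107%) and PLK4 (138%) end above their GD45 level.

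Other marker lists moved with the same days, and their part in the falls was not tested. The sum of 5 intermediate progenitor markers was 363 to 646 CPM at GD45, 219 to 296 at GD60 and 86.2 to 129 at GD90. Most of it was HES6, with means of 300, 203 and 105 CPM at the 3 days. From GD45 to GD90 the mean of EOMES went from 64.8 to 1.78 CPM and that of NEUROG2 from 36.9 to 0.777. NEUROD4 went from 23.2 to 0.239 CPM and NEUROG1 from 7.9 to 0.0529. All 5 were called lower in both periods, and NEUROG1 had 3 counts or fewer in every GD90 library. Of 7 radial glia markers 4 were called lower in each period, and 1 was called higher from GD60 to GD90. Over all genes tested 7.37% and then 20.9% were called lower, and 21.4% were called higher in the later period. In the 5 markers listed for cerebellar granule cell precursors, the sum ran from 146 to 316 CPM at GD45 (median 266). It ran from 58.6 to 173 at GD60 (median 118) and from 48.7 to 209 at GD90 (median 56.8). The highest GD90 library lay above all of GD60. Not all 5 are specific to these cells, and ZIC1 and ZIC2 had the highest means, 103 and 102 CPM at GD45. Of the 5, 1 was called lower in the first interval and none in the later one.

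Markers of neurons, of the oligodendrocyte lineage including its precursors, of astrocytes and of microglia rose on the same scale. Of 11 neuron markers 7 were called higher from GD45 to GD60 and 10 from GD60 to GD90, and the median of their sum went from 3430 to 4340 and 7200 CPM. Of 8 markers of the oligodendrocyte lineage 5 and then all 8 were called higher, with sums of 157 to 242 CPM at GD45 and 2070 to 3340 CPM at GD90. Of 4 astrocyte markers 2 and then all 4 were called higher, and of 7 microglia markers 2 and then 6. Among all 16325 genes tested, 1527 were called higher in the first period and 21.4% in the later one. CPM here are scaled by TMM factors, so a rise of these genes and a fall of the members are both relative to the bulk of genes.

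Licensing genes were led by the MCM2 to MCM7 subunits of the replicative helicase, and all 9 named genes of this group were lower in both periods. MCM2 ran from 103 to 179 CPM at GD45 (median 109), from 49.3 to 69.6 at GD60 (median 57.7) and from 26.9 to 38.6 at GD90 (median 29.2). The 3 days did not overlap, and without male GD45 replicate 3 the highest GD45 library had 111 CPM. MCM7 ran from 155 to 255 CPM at GD45 (median 170), from 107 to 144 at GD60 (median 115) and from 46.5 to 59.0 at GD90 (median 51.9), and without male GD45 replicate 3 its highest GD45 library had 174 CPM. Its larger change came later, with a log2 change of −0.59 ± 0.11 (SE, adjusted p = 0.000952, edgeR) from GD45 to GD60 and −1.18 ± 0.11 (adjusted p = 2.6e-07) from GD60 to GD90.

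MCM6 kept more of its level than the other subunits, although a difference between subunits was not tested. It ran from 106 to 124 CPM at GD45 (median 116), from 75.9 to 90.9 at GD60 (median 84.8) and from 70.1 to 78.9 at GD90 (median 74.3). The GD60 libraries lay below those of GD45, while those of GD90 and GD60 overlapped. The log2 changes were −0.45 ± 0.07 (adjusted p = 0.000307) and −0.19 ± 0.07 (adjusted p = 0.0432), and the later one missed the threshold in 16 of the alternatives, at −0.22 to −0.16, among them the random litter block and littermates summed. At GD90 MCM6 stood at 64.3% of GD45, against 24.5% to 32.1% for MCM2, MCM3, MCM4, MCM5 and MCM7. Its gene model has 62.0% of its exonic bases outside the RefSeq gene, but exons that overlap RefSeq MCM6 exons gave 79.0 ± 4.71, 54.7 ± 5.57 and 50.2 ± 2.75 CPM (SD, n = 6) at the 3 days.

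Per base of gene model, the subunits were not at equal levels. In fragments per kilobase of gene model, scaled as CPM (FPKM), MCM7 had 62.7 at GD45, MCM2 26.7, MCM5 23.5, MCM4 20.0, MCM3 14.3 and MCM6 13.8. At GD90 the means were 18.2 for MCM7, 8.86 for MCM6, 7.53 for MCM5, 6.87 for MCM2, 5.71 for MCM4 and 3.50 for MCM3. These levels depend on the length given to each model, and the long MCM6 model lowers its value.

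The other licensing genes fell alongside. MCM3, MCM4 and MCM5, further helicase subunits, were at 50%, 50.5% and 47.3% of their GD45 level at GD60 and at 24.5%, 28.6% and 32.1% at GD90. CDC45, which joins the active helicase, had 36.4 ± 9.38 CPM at GD45 (32.6 ± 1.02 without male replicate 3), 17.8 ± 2.06 at GD60 and 9.04 ± 1.26 at GD90 (SD, n = 6). CDC6, the loading factor, had 6.16 ± 1.42 (5.58 ± 0.237 without it), 3.38 ± 0.535 and 1.88 ± 0.634 CPM. MCM10, which starts fork assembly, had 9.90 ± 1.08, 5.06 ± 0.603 and 3.27 ± 0.588 CPM, and its GD90 and GD60 libraries overlapped. Of its exonic bases 19.4% are shared with the model of OPTN. Exons over RefSeq MCM10 had 2.05 ± 0.517, 1.06 ± 0.338 and 0.844 ± 0.481 CPM. Their log2 ratios were −0.95 (adjusted p = 0.0231) and −0.33 (adjusted p = 0.436) in the exact permutation test described below. With exon counts summed per gene, the MCM10 changes were −0.84 and −0.54, and both missed the threshold. CDT1, found by gene ID, fell from 37.8 ± 15.0 (31.8 ± 3.75 without male GD45 replicate 3) to 19.5 ± 3.00 CPM (log2 change −0.95 ± 0.18, adjusted p = 0.00143). Its 17.2 ± 2.17 CPM at GD90 gave −0.19 ± 0.18 against GD60 (adjusted p = 0.431).

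PCNA, the sliding clamp of the replication fork, ran from 98.9 to 130 CPM at GD45 (median 115), from 47.8 to 63.7 at GD60 (median 58.4) and from 26.8 to 39.7 at GD90 (median 33.6). No library of one day reached those of the next. The log2 changes were −1.0 ± 0.10 (adjusted p = 4.9e-06) and −0.75 ± 0.10 (adjusted p = 1.0e-05). Although 83.2% of the exonic bases of its model lie outside the RefSeq gene, those exons held 0.0217 CPM at GD45 against 93.0 CPM in the RefSeq exons.

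The 2 subunits of ribonucleotide reductase, which makes deoxynucleotides, changed by different amounts. RRM1, the large subunit, ran from 134 to 156 CPM at GD45 (median 144), from 106 to 118 at GD60 (median 113) and from 88.0 to 96.2 at GD90 (median 92.0). Its days did not overlap, yet its log2 change from GD45 to GD60, −0.36 ± 0.07 (adjusted p = 0.00112), was the least of all members that passed. RRM2, the small subunit whose supply follows S phase, was found by position and had 89.3 ± 15.1 CPM at GD45, 52.6 ± 6.38 at GD60 and 18.4 ± 2.65 at GD90 (SD, n = 6). Its log2 change from GD60 to GD90 was −1.51 ± 0.13 (adjusted p = 1.7e-07). At GD90 RRM1 stood at 64.1% and RRM2 at 20.6% of GD45, and the difference between them was not tested.

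TYMS, thymidylate synthase, fell from 9.31 ± 2.74 to 3.8 ± 1.61 CPM (log2 change −1.27 ± 0.26, adjusted p = 0.00286). Its GD90 level of 2.49 ± 0.474 CPM gave −0.61 ± 0.27 against GD60 (adjusted p = 0.0827). Without female GD60 replicate 3 that change was −0.80 and passed. GD45 and GD60 overlapped through male GD45 replicate 3 alone, at 5.05 CPM, while the other 5 GD45 libraries started at 8.28 CPM.

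E2F1 and E2F2, activators of S phase genes, were among the steeper falls. E2F1 ran from 49.9 to 83.3 CPM at GD45 (median 57.2), from 21.8 to 37.1 at GD60 (median 28.8) and from 12.2 to 18.8 at GD90 (median 16.0), with 61.0 CPM as its highest GD45 library without male replicate 3. E2F2 ran from 13.2 to 18.2 CPM at GD45 (median 14.9), from 6.01 to 8.96 at GD60 (median 6.42) and from 1.58 to 3.45 at GD90 (median 2.60). Neither gene overlapped between days, and the E2F2 change from GD60 to GD90, −1.44 ± 0.16 (adjusted p = 2.0e-06), was the largest of the named members in that period.

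E2F8, a repressor that acts late in S phase, had 8.29 ± 1.94 CPM at GD45, 3.04 ± 0.642 at GD60 and 1.80 ± 0.452 at GD90 (SD, n = 6). Its first change, −1.43 ± 0.20 (adjusted p = 0.000105), was the second in size after CCNB2. CCNE2, cyclin E2, had 10.7 ± 1.48, 6.29 ± 1.13 and 3.86 ± 0.972 CPM and fell in both periods.

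CCNE1, cyclin E1, went down and then up. In the order of replicates 1 to 3, females had 7.50, 6.72 and 7.14 CPM at GD45, 3.77, 6.4 and 4.70 at GD60, and 8.51, 6.63 and 7.21 at GD90. Males had 5.96, 6.46 and 7.69 CPM at GD45, 4.44, 4.18 and 5.70 at GD60, and 7.40, 7.27 and 7.22 at GD90. Every GD90 library lay above every GD60 library, which held for 12.9% of all genes tested, while GD60 and GD45 overlapped through female GD60 replicate 2.

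The log2 change of CCNE1 was −0.50 ± 0.14 (adjusted p = 0.0211) from GD45 to GD60 and 0.60 ± 0.14 (adjusted p = 0.00264) from GD60 to GD90. The fall missed the threshold in 5 alternatives at −0.52 to −0.42, with littermates summed, with only the libraries compared, with both GD45 fetuses of the litter of 8 left out, and when either female GD60 replicate 1 or male GD60 replicate 2 was left out. Its reads lay in RefSeq CCNE1 exons, with 5.32 ± 0.705, 3.57 ± 0.708 and 5.23 ± 0.66 CPM (SD, n = 6) at the 3 days. Cyclin E2, which acts with the same kinase partner, was at 36.1% of its GD45 level at GD90, where cyclin E1 was at 107%.

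CDK1, the kinase that starts mitosis, ran from 14.8 to 22.5 CPM at GD45 (median 20.4), from 7.62 to 11.5 at GD60 (median 9.06) and from 3.02 to 6.34 at GD90 (median 5.36). Its log2 changes were −1.09 ± 0.17 (adjusted p = 0.000257) and −0.90 ± 0.17 (adjusted p = 0.000487), with no overlap between days. CCNB1, its cyclin partner, had 34.0 ± 3.15, 15.1 ± 1.83 and 7.35 ± 1.48 CPM (SD, n = 6). CCNB2, the other B cyclin, ran from 13.5 to 19.3 CPM at GD45 (median 15.1), from 3.95 to 6.28 at GD60 (median 5.38) and from 3.15 to 4.63 at GD90 (median 3.49). Most of its fall came early, at −1.61 ± 0.14 (adjusted p = 2.1e-06), the largest change of any member from GD45 to GD60, and then −0.50 ± 0.14 (adjusted p = 0.00900) with overlapping libraries.

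Mitotic kinases and their transcription factors followed. PLK1, the Polo kinase of spindle assembly, had 39.5 ± 4.94, 21.2 ± 3.66 and 11.9 ± 1.27 CPM (SD, n = 6), and AURKB, the kinase of the chromosomal passenger complex, had 35.8 ± 10.4 (31.7 ± 2.61 without male GD45 replicate 3), 16.0 ± 1.57 and 7.90 ± 1.36 CPM. AURKA, the centrosomal Aurora kinase found by position, had 15.0 ± 3.00 (13.8 ± 1.09 without male GD45 replicate 3), 8.80 ± 1.44 and 5.38 ± 1.47 CPM. GTSE1, a protein of G2 and S phase that binds p53, had 27.5 ± 8.63 (24.1 ± 2.11 without male GD45 replicate 3), 13.4 ± 2.95 and 7.53 ± 1.22 CPM. MYBL2, which encodes B-MYB, ran from 68.4 to 125 CPM at GD45 (median 75.2), from 39.1 to 54 at GD60 (median 44.3) and from 17.7 to 26.4 at GD90 (median 23.8), with no overlap and 95.3 CPM as the highest GD45 library without male replicate 3. FOXM1 had lower counts, with 6.32 ± 1.95, 3.72 ± 0.317 and 1.91 ± 0.262 CPM, and its GD45 and GD60 libraries overlapped only through male GD45 replicate 3, without which GD45 started at 4.94 CPM. Of the exonic bases of FOXM1, 47.9% are shared with the model of TEX52.

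PLK4, the kinase that starts centriole duplication, was the mitosis gene whose gene count was called higher from GD60 to GD90. In the order of replicates 1 to 3, females had 31.4, 35.9 and 40.2 CPM at GD45, 33.9, 32.8 and 34.6 at GD60, and 38.3, 44.1 and 43.9 at GD90. Males had 35.6, 40.1 and 25.9 CPM at GD45, 26.6, 25.4 and 21.5 at GD60, and 51.3, 58.5 and 52.9 at GD90. All GD90 libraries were above all GD60 libraries. The log2 change was −0.28 ± 0.11 (adjusted p = 0.0829) from GD45 to GD60 and 0.73 ± 0.11 (adjusted p = 3.5e-05) from GD60 to GD90.

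The exons of RefSeq PLK4 did not show this rise. The gene model counted as PLK4 (chr8:96991940-97090023, minus strand) extends past RefSeq PLK4 (chr8:96989011-97013324) and covers exons of HSPA4L, a heat shock protein gene next to it on the same strand, which had no row of its own in the gene table. Of the exon table reads inside or outside RefSeq PLK4, 85.2% lay outside. Those outer exons had 18.5 ± 2.02 CPM at GD45, 17.8 ± 3.18 at GD60 and 30.6 ± 2.57 at GD90 (SD, n = 6), with the GD90 libraries (27.5 to 35.0) above all of GD60 (14.4 to 23.0). The exons that overlap RefSeq PLK4 had 5.34 ± 2.15, 3.43 ± 0.499 and 2.58 ± 0.601 CPM. At GD90 they ran from 1.50 to 3.34 CPM (median 2.70) and at GD60 from 2.75 to 4.25 (median 3.45), which is a fall with overlap.

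Between GD60 and GD90 the log2 ratio of the means was 0.79 for the outer exons and −0.41 for the PLK4 exons. A two-sided exact permutation test of 6 against 6 libraries on log2(CPM + 0.1) gave p = 0.00216 for the outer exons, the smallest it allows, and p = 0.0130 for the PLK4 exons. Adjusted over the 16 tests of 4 split genes, these became 0.0231 and 0.0519. The test shuffled libraries without regard to litter or sex, although the 6 of a day came from 3 litters. Its p-values may therefore be too small. The exon table holds 69.9% of the PLK4 reads of the gene table, so the split rests on the reads that could be given to an exon.

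**Figure D3:**
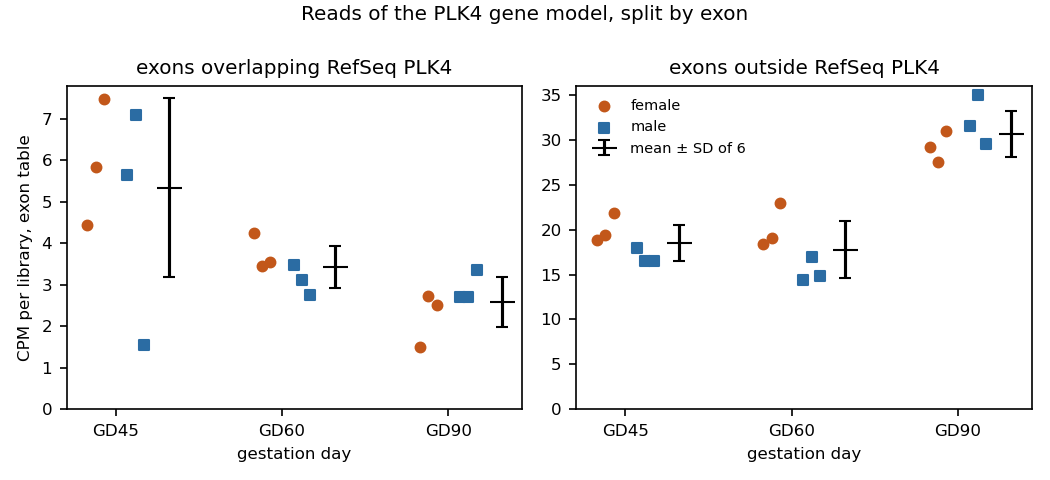
CPM of the PLK4 gene model (y axes, different scales) in exons overlapping RefSeq PLK4 (left) and in exons outside it (right), by gestation day (x axis), females as circles and males as squares, with the mean and SD of 6 libraries. Outer exons sit between 27.5 and 35.0 CPM at GD90, above all of GD60, whereas PLK4 exons do not rise.

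Among genes of chromosome structure, the proliferation marker MKI67 was found by position and ran from 96.5 to 141 CPM at GD45 (median 120), from 37.8 to 71.1 at GD60 (median 57.1) and from 19.4 to 41.8 at GD90 (median 28.1). Its log2 changes were −1.08 ± 0.16 (adjusted p = 0.000158) and −0.99 ± 0.16 (adjusted p = 9.4e-05), and its GD60 and GD90 libraries overlapped. TOP2A, the topoisomerase that untangles sister chromatids, ran from 92.5 to 197 CPM at GD45 (median 165), from 39.7 to 81.6 at GD60 (median 62.1) and from 29.4 to 42.8 at GD90 (median 34.9). Its lowest GD45 library was male replicate 3, and the others started at 151 CPM. The log2 changes of TOP2A were −1.35 ± 0.19 (adjusted p = 0.000125) and −0.84 ± 0.19 (adjusted p = 0.00206).

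Condensin genes split in the later period. SMC4 ran from 33.1 to 58.5 CPM at GD45 (median 44.9), from 18.4 to 31.5 at GD60 (median 25.4) and from 13.0 to 19.1 at GD90 (median 16.1), and the condensin subunits NCAPG and NCAPH, at 34.2% and 23.9% of GD45 at GD90, fell in both periods as well. SMC2, which forms the condensin core with SMC4, had 25.6 ± 4.21 CPM at GD45, 14.2 ± 3.01 at GD60 and 16.5 ± 2.39 at GD90 (SD, n = 6). Its log2 change was −0.85 ± 0.14 (adjusted p = 0.000420) and then 0.22 ± 0.14 (adjusted p = 0.228). Exons over RefSeq SMC2 had 5.52 ± 2.41, 3.23 ± 1.41 and 5.45 ± 1.66 CPM, and exons outside it, 35.1% of the exon reads, had 3.75 ± 0.794, 1.99 ± 0.408 and 1.96 ± 0.576 CPM.

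All 4 named kinetochore and checkpoint genes were lower in both periods without overlap between days. CENPF, a kinetochore protein of late G2 and mitosis, ran from 58.6 to 82.3 CPM at GD45 (median 71.7), from 30.2 to 41.3 at GD60 (median 34.9) and from 12.3 to 23.1 at GD90 (median 13.9). BUB1, the checkpoint kinase, ran from 16.2 to 23.9 CPM (median 20.4), from 6.52 to 10.8 (median 8.67) and from 2.91 to 5.70 (median 3.73) at the same days. CENPA, the histone variant of centromeres, stood at 24.0% and CENPE, a kinetochore motor, at 30.4% of its GD45 level at GD90. BUB1B, another checkpoint kinase, found by gene ID, ran from 19.9 to 29.7, from 11.0 to 17.2 and from 5.82 to 10.3 CPM. Without male GD45 replicate 3 its GD45 libraries started at 26.0 CPM.

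Spindle genes were lower in 6 of 7 cases in each period. TPX2, which activates Aurora A on the spindle, ran from 68.2 to 95.4 CPM at GD45 (median 73.5), from 33.2 to 48.5 at GD60 (median 40.6) and from 18.9 to 25.3 at GD90 (median 19.7). KIF2C, a kinesin that takes microtubules apart, ran from 23.4 to 43.0 (median 25.2), from 13.0 to 17.4 (median 14.8) and from 6.4 to 8.73 (median 7.89) at the same days. Neither gene overlapped between days. Without male GD45 replicate 3 the highest GD45 library had 76.1 CPM for TPX2 and 32.9 CPM for KIF2C. KIF20A and KIF23, kinesins of the central spindle, were at 51.2% and 47.8% of GD45 at GD60 and at 30.6% and 28.0% at GD90, also without overlap. KIF11, the motor that pushes the spindle poles apart, fell from 28.4 ± 5.54 to 11.5 ± 3.03 CPM and had 8.25 ± 2.00 CPM at GD90 (SD, n = 6). Its later log2 change, −0.47 ± 0.15 (adjusted p = 0.0210), missed the threshold in 3 alternatives at −0.47 to −0.39, those with litter as a random block, without male GD60 replicate 1 and without male GD90 replicate 2.

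PRC1, which bundles the central spindle, was at 1.01 ± 0.447 CPM at GD45, 0.530 ± 0.137 at GD60 and 0.451 ± 0.252 at GD90 (SD, n = 6) and passed in neither period. Of the exonic bases of its model 79.5% are shared with an unnamed gene, where reads could be lost to both. NUSAP1, a spindle protein found by gene ID, ran from 52.2 to 98.2 CPM at GD45, from 33.5 to 44.3 at GD60 and from 29.7 to 36.4 at GD90. Without male GD45 replicate 3 its GD45 libraries started at 78.6 CPM. Its log2 changes were −1.03 ± 0.11 (adjusted p = 1.3e-05) and −0.33 ± 0.11 (adjusted p = 0.0245). The later change missed the threshold in 3 alternatives at −0.32 to −0.28, those without male GD60 replicate 1, male GD90 replicate 2 or male GD90 replicate 3.

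Among genes of mitotic exit, CDC20, which activates the anaphase-promoting complex, lost most of its level. It ran from 49.4 to 121 CPM at GD45 (median 58.4), from 20.9 to 34.3 at GD60 (median 23.6) and from 8.07 to 12 at GD90 (median 10.9). The highest GD45 library was male replicate 3, and the other 5 reached 66.8 CPM. Its log2 changes were −1.40 ± 0.19 (adjusted p = 9.5e-05) and −1.29 ± 0.20 (adjusted p = 6.3e-05), leaving 15.3% of the GD45 mean, or 18.3% without male GD45 replicate 3. UBE2C, which works with that complex, ran from 35.4 to 69.8 CPM (median 49.1), from 15.1 to 26.8 (median 18.7) and from 5.91 to 10.5 (median 8.30), and kept 16.5%, or 17.9% without that library, which held its highest value (53.0 CPM in the others). BIRC5, survivin of the passenger complex, ran from 44.7 to 107 CPM (median 52.7), from 26.4 to 36.3 (median 28.3) and from 12.6 to 30.0 (median 16.0), with overlap between GD60 and GD90. Its 107 CPM was male GD45 replicate 3, and the other GD45 libraries reached 61.2 CPM.

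ESPL1, the separase that cuts cohesin, fell late. It ran from 16.5 to 23.8 CPM at GD45 (median 19.2), from 8.77 to 22.7 at GD60 (median 13.1) and from 3.24 to 7.40 at GD90 (median 5.46). Male GD60 replicate 3 was its high GD60 library, and without it the first change was −0.70 and passed instead of −0.49 ± 0.20 (adjusted p = 0.114). The later change was −1.35 ± 0.21 (adjusted p = 8.4e-05). ANLN, the scaffold of the contractile ring, had 8.99 ± 2.50 (9.97 ± 0.839 without male GD45 replicate 3), 5.27 ± 1.01 and 5.42 ± 0.990 CPM (SD, n = 6), with log2 changes of −0.77 ± 0.20 (adjusted p = 0.0150) and 0.03 ± 0.21 (adjusted p = 0.924). ECT2, which positions that ring, fell from 21.9 ± 3.44 to 11.2 ± 2.86 CPM, and its 8.55 ± 1.29 CPM at GD90 gave −0.39 ± 0.18 (adjusted p = 0.0891). Without male GD60 replicate 3 that change was −0.52 and passed.

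Per base of gene model, the highest GD45 means were 62.7 FPKM for MCM7, 60.0 for UBE2C, 38.3 for BIRC5, 36.8 for CDC20 and 29.8 for RRM1. At GD90 RRM1 was first with 19.1 FPKM, MCM7 had 18.2, BIRC5 12, UBE2C 9.90 and CDC20 5.65. UBE2C thus went from above RRM1 to below it, on the FPKM scale.

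**Figure D4:**
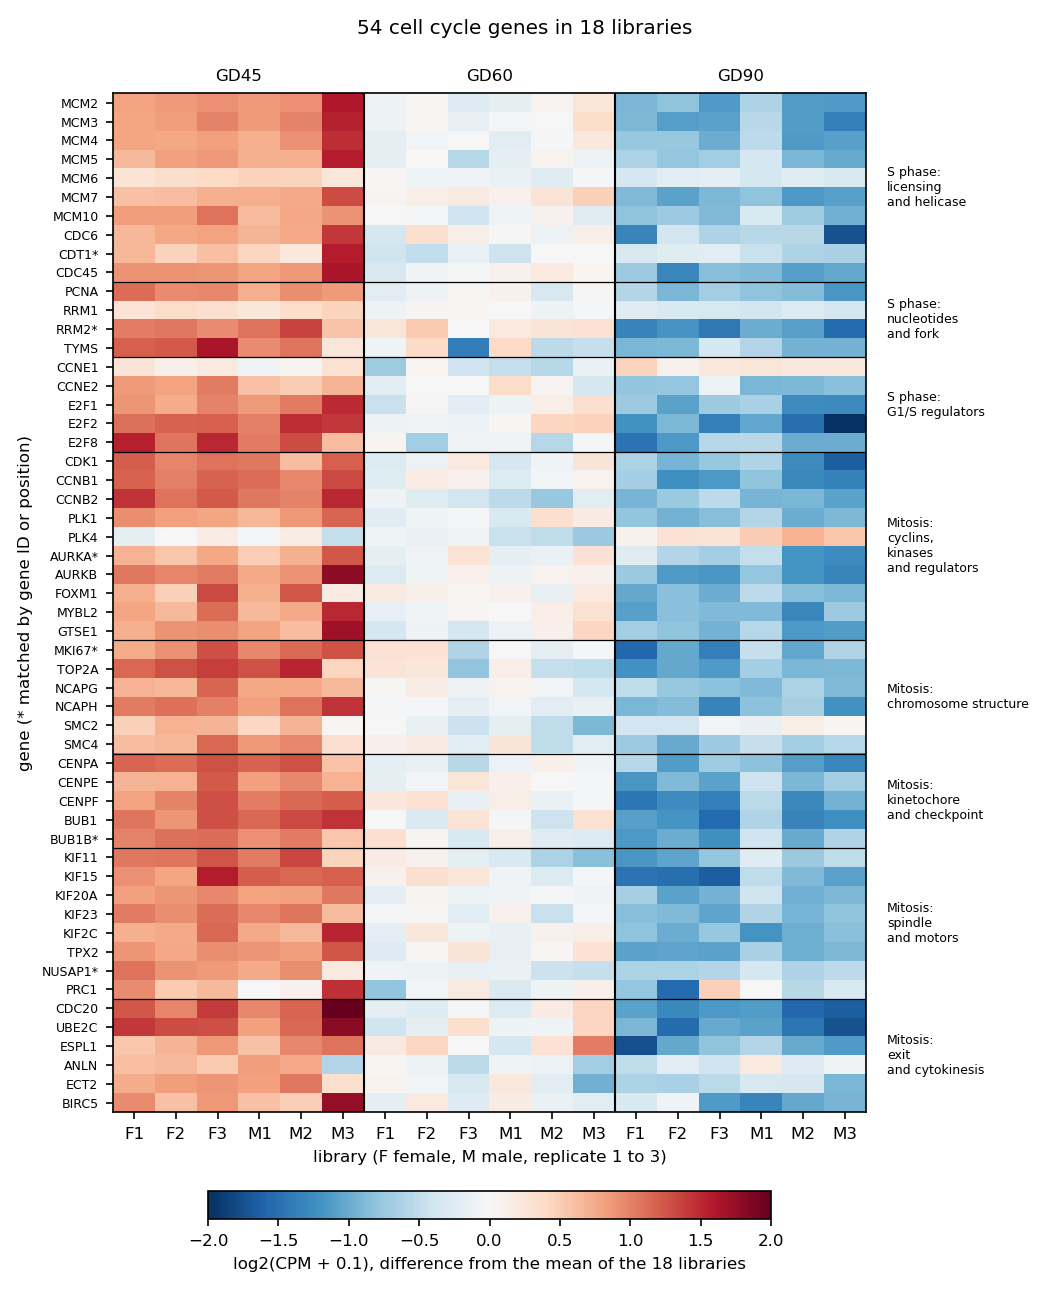
Each row is a member and each column a library, and color gives log2(CPM + 0.1) minus the mean of the row over 18 libraries, cut at −2 and 2. Rows are grouped by role, columns by gestation day, and * marks the 6 members matched by gene ID or position. GD45 columns are high, GD90 columns low, PLK4 and CCNE1 depart from this, and male GD45 replicate 3 (M3) differs from its neighbours in both directions.

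Sexes were then compared at each day. No named member was called between the sexes at GD45, GD60 or GD90 by edgeR's quasi-likelihood test (0.0919%, 0.098% and 0.098% of all genes were), and 0, 2 and 5 had an unadjusted p under 0.05. DESeq2 called none either, with 1, 2 and 5 at an unadjusted p under 0.05. With only the GD90 libraries in the fit, edgeR called no member between the sexes at GD90 but 6.88% of all genes. The smallest adjusted p of a member was 0.0544 there. In the edgeR fit of all 18 libraries, the interaction of sex and day called no member in either period and 0.0% of all genes. It had 0 and 5 members at an unadjusted p under 0.05. DESeq2 also called none for the first period, with 0 at an unadjusted p under 0.05, but called 3 members for the later period, where 6 had an unadjusted p under 0.05 and 1.7% of all genes were called. These 3 were PLK4, KIF11 and KIF15, a motor that backs up KIF11.

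These 3 genes are described because DESeq2 called them. In the order of replicates 1 to 3, KIF15 had 8.14, 9.60 and 9.09 CPM in females and 7.33, 6.34 and 7.49 in males at GD60, and 2.70, 2.65 and 2.38 in females and 5.40, 4.13 and 3.61 in males at GD90. KIF11 had 15.2, 14.5 and 11.9 CPM in females and 11.0, 8.73 and 7.62 in males at GD60, and 6.05, 6.5 and 7.94 in females and 11.5, 8.07 and 9.52 in males at GD90. In these and PLK4 all females were above all males at GD60 and all males above all females at GD90, an order that 2.35% of all genes had and that follows in part from the choice of these genes.

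The change from GD60 to GD90 was larger in the direction of a rise in males by 1.11 ± 0.30 for KIF15 (adjusted p = 0.175), 1.10 ± 0.31 for KIF11 (adjusted p = 0.180) and 0.83 ± 0.21 for PLK4 (adjusted p = 0.175) on the log2 scale. Without male GD45 replicate 3, which takes no part in this contrast but sets the shared spread, the adjusted p were 0.0299, 0.0206 and 0.0180, and 13.3% of all genes passed. With DESeq2 they were 0.0495, 0.0446 and 0.0227. The PLK4 values carry the outer exons described above, which had 18.4, 19.1 and 23.0 CPM in females and 14.4, 17.0 and 14.8 in males at GD60. At GD90 they had 29.2, 27.5 and 31 CPM in females and 31.6, 35.0 and 29.6 in males, where the sexes overlapped.

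Other genes of the same processes, in 5 lists, fell as well. Of 91 genes tested, 64 were lower and none higher from GD45 to GD60, and 52 were lower and 2 higher from GD60 to GD90. For these lists, the shares of all genes were 7.37% lower in the first period, and 20.9% lower and 21.4% higher in the later one. Their median log2 changes were −0.67 and −0.49. Among 27 other mitotic genes 26 and then 23 were lower, with the largest changes for MELK (−1.46 ± 0.16, adjusted p = 1.3e-05) and then HJURP (−1.30 ± 0.17, adjusted p = 1.4e-05), a kinase of dividing cells and the chaperone of CENPA.

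Replication genes outside the members were lower in part. Among 23 polymerase and fork genes 17 and then 14 were lower, led by UHRF1 (−1.41 ± 0.20, adjusted p = 0.000118), which keeps DNA methylation, and then TIMELESS (−1.19 ± 0.22, adjusted p = 0.000354), a fork protection factor. Among 15 genes of origin recognition and firing 9 and then 7 were lower, led by GINS3 (−1.07 ± 0.16, adjusted p = 0.000225) and then GINS2 (−1.31 ± 0.16, adjusted p = 8.1e-06), both of the GINS part of the helicase. The ORC2 and ORC3 subunits of the origin complex had log2 changes of −0.19 and −0.07 in the first period, and neither passed.

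G1 regulators and inhibitors followed in part. Of 18 G1 cyclins, kinases and pocket proteins 10 and then 7 were lower, led by CDK2 (−1.10 ± 0.11, adjusted p = 9.1e-06), the partner of cyclin E, and then TFDP2 (−0.94 ± 0.18, adjusted p = 0.000570), an E2F partner. E2F3 was the 1 gene of that list to rise from GD60 to GD90, by 0.27 ± 0.10 (adjusted p = 0.0417). Of 8 inhibitors and exit genes CDKN2C and CDKN1C were lower in the first period. In the later one BTG1 was lower (−0.57 ± 0.16, adjusted p = 0.0109) and CDKN2D, the p19 inhibitor of CDK4 and CDK6, was higher (0.63 ± 0.11, adjusted p = 0.000274). That is 1 of 8 in each direction, against 20.9% lower and 21.4% higher among all genes, so the list does not stand out there. CDKN1B, the p27 inhibitor, had log2 changes of −0.12 and −0.17 and passed in neither period.

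Male GD45 replicate 3 set the spread of many members at GD45, and its deviations went with gene length. It was above the other 5 GD45 libraries in 26 of the 48 named members and below them in 14, against 35.5% and 36.2% of all genes. Of the 24 members with a model of up to 4154.5 bases, the median length, it was above in 19, and of the 24 longer ones in 7. Its log2 difference from the mean of the others had a median of 0.61 in the 13 members with models of up to 3000 bases, 0.21 in the 22 between 3000 and 6000 bases and −0.15 in the 13 over 6000 bases. Over all genes tested the medians were 0.34, −0.08 and −0.25. Spearman's rho of this difference and model length was −0.44 over the 48 members and −0.29 over 16325 genes, which share the same libraries and are not independent.

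**Figure D5:**
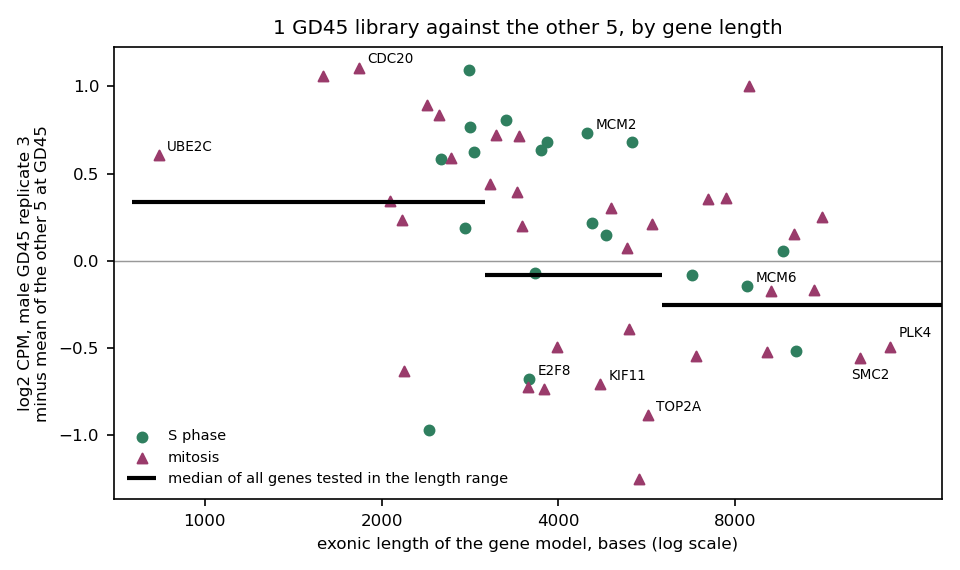
Log2 CPM of male GD45 replicate 3 minus the mean of the other 5 GD45 libraries (y axis) against the exonic length of the gene model in bases (x axis, log scale) for the 54 members with a row, S phase as circles and mitosis as triangles. Black bars give the medians of all genes tested in 3 length ranges, 0.34, −0.08 and −0.25, and short members such as CDC20 sit high while TOP2A and SMC2 sit low.

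Without this library 46 of the 48 members were lower from GD45 to GD60 over both sexes, instead of 45, and PLK4 was the added one. Its marker sums were the highest of GD45 for radial glia (3460 CPM, the others at most 2150), intermediate progenitors (646 and 408) and endothelium (501 and 381). They were also the highest for microglia (126 and 111), erythroid cells (39.8 and 29.1) and the pancreatic genes (121 and 92.2). They were the lowest of GD45 for granule cell precursors (146 CPM), astrocytes (126 CPM) and mesenchyme (951 CPM), and their part in the members' values was not tested. The female of the same litter was the highest of the 3 GD45 females in 33 of the 48 members (35.5% of all genes).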

How the data were processed

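Whole-brain RNA of 18 pig fetuses was sequenced, 3 females and 3 males at each of GD45, GD60 and GD90. The authors deposited raw read counts per gene and per exon. Per the labels' processing notes the tools were FastQC, Trimmomatic, HISAT2 and FeatureCounts on Sscrofa11.1, and strand and multiple-match settings are not given in the sources used here. The 22 count columns held 18 libraries, of which 4 had 2 runs that were summed, and no column was left over. A transcript table was not used.

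Members and gene lists were chosen with earlier results of these data known. Genes passing filterByExpr (16325 of 31908, with 99.9% of counts) were fitted in edgeR 4.0.16 (R 4.3.3) with TMM factors, 1 model of 6 groups and the quasi-likelihood test, and p-values were adjusted by Benjamini-Hochberg over all 16325 genes (threshold 0.05). CPM used the TMM factors, with a prior count of 2 for log2 values, and FPKM used the deposited lengths. Exon counts of 4 members with at least 10% of exon reads outside the RefSeq gene were compared by exact permutation tests. Totals had a median of 16413097 counts, and p-values measure the spread between these fetuses. Named were the 2 members of highest CPM in each of 8 role groups, the largest and smallest changes, members against the majority, members not passing and called members with overlapping days, and from the other lists the largest changes.

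On simulated counts for 16325 genes, a 2-fold change was recovered in 45% of 100 genes for GD60 against GD45 in females and in 71% for both sexes, and a 1.5-fold change in 5% and 33%. Alternatives were DESeq2 1.42.0, no TMM factors, no filter, the exon table, only the libraries compared, each library left out, littermates summed, and litter as a block (limma 3.58.1). Littermates' deviations from their group means correlated at −0.093 to 0.424, with a limma consensus correlation of 0.104. The litter was read from the litter size in the labels.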

Additional observations from a re-analysis of the deposited data

Results flagged for a closer look

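Of 63 groups of 6 libraries checked, 7 held a library whose gap to its nearest neighbour was large for the range of the group by Dixon's 95% limit, and chance gives about 1 in 20. In 6 of them the library was male GD45 replicate 3, which was the highest each time. It had a summed S phase level of 1310 CPM, and single genes at 107 CPM for BIRC5, 121 CPM for CDC20, 83.3 CPM for E2F1, 255 CPM for MCM7 and 95.4 CPM for TPX2. The other was male GD90 replicate 1, whose summed mitosis level of 387 CPM was the highest of GD90.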

How the results depend on the processing

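Over both sexes, the members called numbered 45 from GD45 to GD60 and 43 from GD60 to GD90, and leaving out each library gave 44 to 46 and 41 to 44. In females the counts were 28 to 43 and 28 to 39, and in males 27 to 40 and 30 to 40. Sex at each day and the first interaction stayed at 0 to 0 called, and the later interaction ran from 0 to 3. With only the GD90 libraries, 0 members but 6.88% of all genes were called between the sexes (edgeR, smallest adjusted p of a member 0.0544). With only the libraries compared, 0 members were called from GD45 to GD60 in males (edgeR, 41 at an unadjusted p under 0.05, smallest adjusted p 0.0761) instead of 39, and 0.0% of all genes were called there. The later interaction called 3 members with DESeq2 (1.7% of all genes), 3 with only the libraries compared (7.14%), 3 without male GD45 replicate 3 (13.3%), and 3 without both GD45 fetuses of the litter of 8 (12.7%), an alternative chosen after seeing the data, each time KIF11, KIF15 and PLK4. With litter as a random replicate block, 40, 38 and 45 members were called from GD45 to GD60 in females, males and both, and 33, 37 and 41 from GD60 to GD90, where KIF11 and MCM6 lost their call over both sexes. With litter as a fixed replicate block, 0 were called for sex and 0 for either interaction. The exon table, with 57.9% of the members' reads, gave 42 and 37 over both sexes. For days compared with a library left out, the random litter block or the exon table, the share of all genes called is not given here. Those counts show only how the members' calls moved with the processing. PLK4 changed sign from GD60 to GD90, to −0.41, when only exons inside RefSeq PLK4 were counted (adjusted p = 0.0519, exact permutation test, chosen after seeing the data). For low members depth was a limit, with 2 counts as the lowest value in a library. The causes of these shifts were not tested.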
